A study of Solanum lycopersicum with 9 samples.

Results

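Alpha-expansins were followed in tomato leaves (Solanum lycopersicum) as a fixed list of 10 gene identifiers, all 10 of which were present among the 23195 genes of the count table. The list was taken by identifier as the alpha-expansin family. The table gives neither names nor products, and the reference gene table holds 0 of the 23195 identifiers. The family label of each gene could therefore not be checked, and no individual gene name, role or sequence is given. The genes were chosen by family and not by a threshold, but with earlier results of these data known, in which Solyc05g007830.3 had been selected on its log2 fold change against control. Its values against control are therefore given as a description with no test.

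Alpha-expansins are small secreted proteins of the plant cell wall. They loosen the bonds between cellulose and the polysaccharides that coat it, without cutting either, and act best in an acid wall. The wall can then yield to turgor, so the proteins are known above all from growing leaves, stems, roots and fruits, where different family members serve different organs and stages.

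The plants were wild type (WT) of the cultivar M82, with 3 biological replicates in each of 3 groups. In the partial shading group, foil covered every leaf but the youngest fully expanded one, which is leaf 4 or 5 counted from the top. In the partial defoliation group the other leaves were cut off with a knife. Both treatments were made 1 week after the first flowers opened, and the third group was the untreated control. RNA was taken from the remaining leaf and from parallel control leaves. The labels of the treated libraries carry the number 48 without a unit and those of the control libraries carry none, so whatever it marks cannot be told apart from the treatments. Leaf mesophyll is the labelled cell type, which could not be checked against markers for want of gene names.

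Total counts were 17617138 to 29758980 in the shading libraries, 26058491 to 31012772 in the defoliation libraries and 25202105 to 27988818 in the control libraries. Shading replicate 3 was the shallowest library and stood apart with 1657 genes at 0, against 334 to 711 in the other 8. Levels are given in CPM, the count per 1000000 reads of the library size as scaled by the TMM method. They are compared between groups within a gene and not between genes, because read counts also depend on transcript length, which the table does not give. In whole-leaf RNA, a change in the cells that express a gene and a change in RNA per cell cannot be told apart.

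Of the 10 genes, 9 passed the filter on low counts and were tested along with all 20480 genes that passed. Solyc08g077910.3 did not pass, with 2 reads in all under shading, 2 after defoliation and 4 in control leaves. No fold change is given for it.

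Several genes of the list had higher levels in the remaining leaf of shaded and of defoliated plants than in control leaves. Solyc05g007830.3 showed the widest separation, followed by Solyc06g049050.3, while Solyc04g081870.3 and Solyc09g010860.3 stood at about double their control level. Solyc03g031840.3 and Solyc06g005560.3 had overlapping values in all 3 groups. No tested gene of the list passed the edgeR test for a lower level in either comparison with control.

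**Figure D1:**
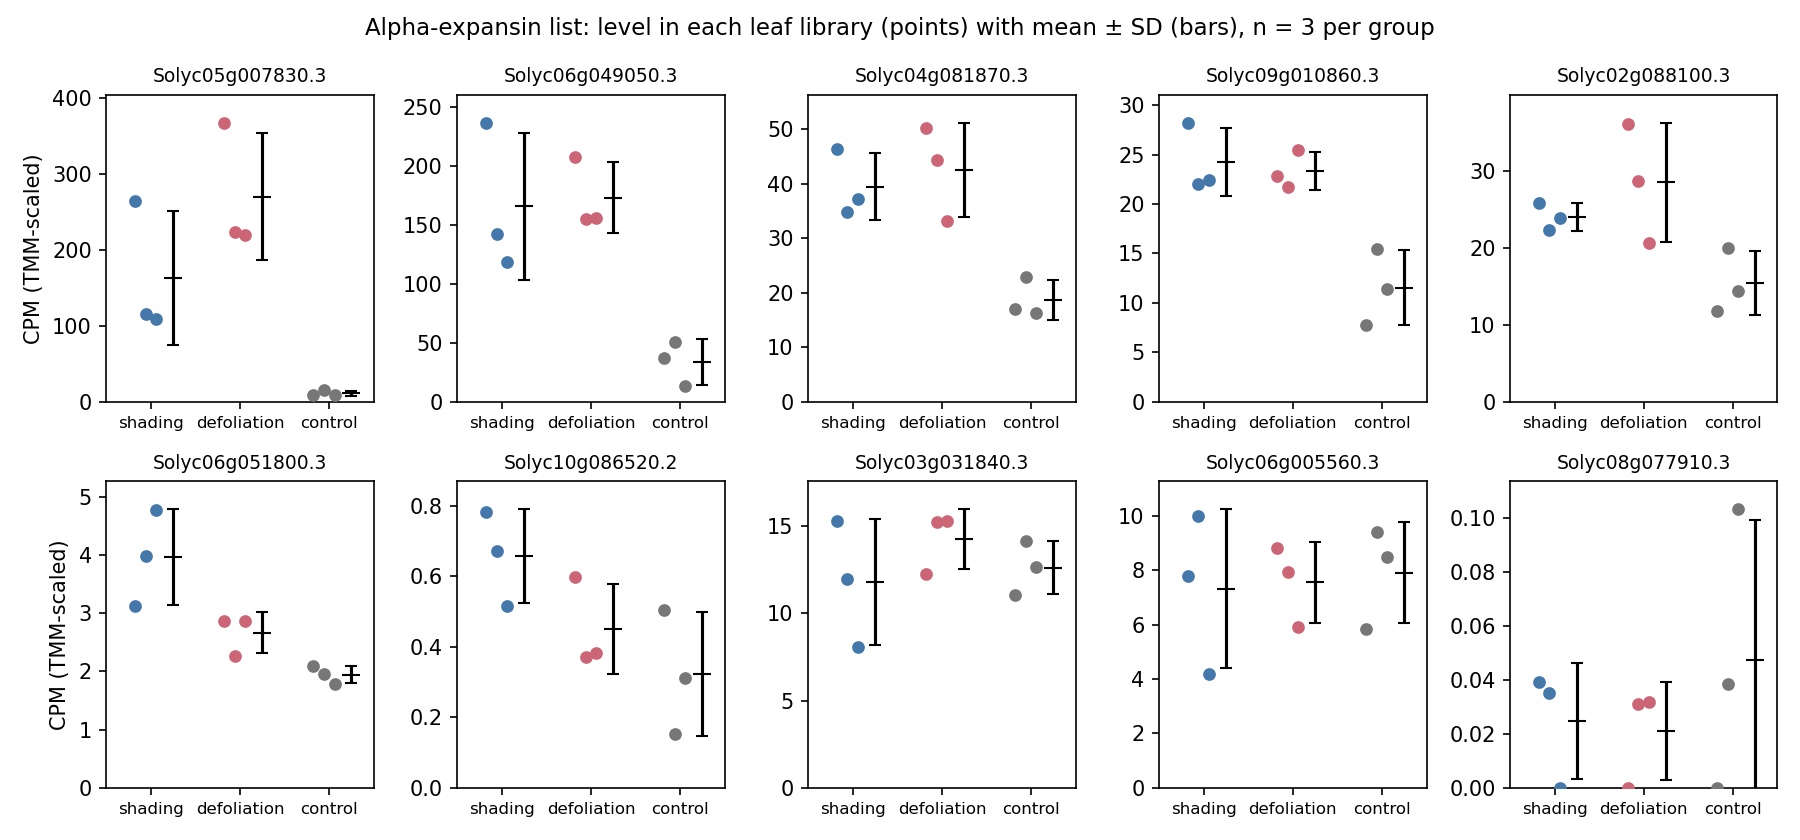
Each panel shows 1 gene of the list, with its level in CPM on a linear axis for the 3 shading, 3 defoliation and 3 control libraries as points and the group mean ± SD as a bar (an SD that reaches below 0 is cut at 0). In the panel of Solyc05g007830.3 the treated libraries lie between 108 and 368 CPM and the control libraries between 9.03 and 15.0 CPM, whereas the groups overlap for Solyc03g031840.3 and Solyc06g005560.3.

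Solyc05g007830.3 had 265, 115 and 108 CPM in the shading libraries, 368, 224 and 220.2 CPM in the defoliation libraries and 9.10, 15.0 and 9.03 CPM in the control libraries. Every treated library was thus far above every control library, and the first replicate was the highest within each treatment. The ratio of means to control was 14.7 for shading and 24.5 for defoliation. As a description, 21 of the 20480 genes had a larger log2 rise under shading and 15 had a larger one after defoliation. The direct difference between the treatments was tested. It shares its treated libraries with the comparisons against control, so it is not independent of the selection of this gene. Its log2 fold change of shading over defoliation was -0.73 ± 0.38 (SE, 95% interval -1.58 to 0.12, edgeR adjusted p = 0.362), and values overlapped because shading replicate 1 exceeded 2 of the defoliation libraries. Without shading replicate 1 the log2 fold change was -1.28 (edgeR adjusted p = 0.121), and it was -0.51 without the shallow shading replicate 3. Adjusted p-values of this difference ranged from 0.121 to 0.714 over the 17 alternatives. The group means were in the order defoliation, shading, control, but the first 2 were not separated beyond their spread and their order is not established.

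Solyc06g049050.3 also stood well apart from control. It had 236, 142 and 118 CPM in the shading libraries, 207, 155 and 156 CPM in the defoliation libraries and 37.4, 50.7 and 12.9 CPM in the control libraries. The lowest treated library was more than double the highest control library, and control replicate 3 was low relative to the other 2. The log2 fold change was 2.30 ± 0.46 for shading over control (SE, edgeR adjusted p = 0.00697) and 2.36 ± 0.46 for defoliation over control (edgeR adjusted p = 0.00512). Without control replicate 3 the values were 1.91 and 1.97, with edgeR adjusted p = 0.00408 and 0.00309. Over the 17 alternatives the adjusted p ranged from 1.81e-07 to 0.0258 for shading and from 7.35e-08 to 0.0193 for defoliation. The treatments were close to each other, at a log2 fold change of shading over defoliation of -0.06 with a 95% interval of -1.06 to 0.94, which still allows a difference of about 2-fold either way.

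Solyc04g081870.3 and Solyc09g010860.3 rose under both treatments by smaller amounts. Solyc04g081870.3 had 46.5, 34.8 and 37.1 CPM in the shading libraries, 50.2, 44.3 and 33.2 CPM in the defoliation libraries and 16.9, 23.0 and 16.3 CPM in the control libraries. No treated library overlapped the controls. The increase was 2.10-fold under shading (edgeR adjusted p = 0.00306, log2 value 1.07 with an SE of 0.19) and 2.27-fold after defoliation (edgeR adjusted p = 0.0015, log2 value 1.18 with an SE of 0.19). Solyc09g010860.3 had 28.2, 22.0 and 22.5 CPM in the shading libraries, 22.9, 21.7 and 25.5 CPM in the defoliation libraries and 7.77, 15.4 and 11.4 CPM in the control libraries. Here the treated libraries formed a narrow band above a wider spread of controls. The increase was 2.10-fold under shading (edgeR adjusted p = 0.0056, log2 value 1.07 with an SE of 0.22) and 2.03-fold after defoliation (edgeR adjusted p = 0.00576, log2 value 1.02 with an SE of 0.22). Between the treatments, shading over defoliation was -0.11 (95% interval -0.53 to 0.31) for Solyc04g081870.3 and 0.05 (-0.42 to 0.53) for Solyc09g010860.3 on the log2 scale.

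For Solyc02g088100.3 and Solyc06g051800.3 only 1 of the 2 treatments passed the test against control. Solyc02g088100.3 had 25.8, 22.3 and 23.8 CPM in the shading libraries, 36.1, 28.6 and 20.7 CPM in the defoliation libraries and 11.8, 20.0 and 14.4 CPM in the control libraries. All treated libraries lay above the controls, though defoliation replicate 3 exceeded control replicate 2 by little. It rose after defoliation (edgeR adjusted p = 0.0139, log2 fold change 0.89 with an SE of 0.23), a call that ended without defoliation replicate 1 (0.68, edgeR adjusted p = 0.0509). Under shading the log2 fold change was 0.64 ± 0.23 (SE, edgeR adjusted p = 0.058). That value passed with DESeq2 (0.65, adjusted p = 0.0319), in an edgeR fit of the shading and control libraries alone (0.64, adjusted p = 0.0376) and in edgeR without control replicate 2 (0.90, adjusted p = 0.0225). It also passed in edgeR without defoliation replicate 1 (adjusted p = 0.0448) or 3 (adjusted p = 0.0297). The adjusted p over the 17 alternatives ranged from 0.0225 to 0.174 for shading and from 0.00208 to 0.0509 for defoliation. The direct difference of shading over defoliation was -0.25 (95% interval -0.75 to 0.26, edgeR adjusted p = 0.617).

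Solyc06g051800.3 had 3.13, 3.99 and 4.78 CPM in the shading libraries, 2.87, 2.27 and 2.86 CPM in the defoliation libraries and 2.09, 1.96 and 1.79 CPM in the control libraries, on 51 to 113 reads per library. After TMM scaling the 3 groups did not overlap with one another, with shading highest and control lowest. The gap between the treatments depends on scaling. Relative to plain totals, shading replicate 1 (80 of 28159415 reads) lay below defoliation replicate 3 (90 of 29791000 reads). Shading rose over control (edgeR adjusted p = 0.00986, log2 fold change 1.02 with an SE of 0.24). The difference of defoliation over control did not pass (0.45 ± 0.24 SE, edgeR adjusted p = 0.161). Set directly against each other, shading over defoliation gave 0.57 ± 0.23 (SE, 95% interval 0.05 to 1.08), with an unadjusted edgeR p of 0.0343 and an adjusted p of 0.265 over all genes. The treatments are thus not shown to differ for this gene. It was the only one of the list whose shading libraries were all above the defoliation libraries in scaled CPM. Shading libraries were all above the defoliation libraries for 10.4% of all tested genes.

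The remaining tested genes did not pass against control. Solyc10g086520.2 had 20, 19 and 8 reads under shading, 16, 12 and 12 after defoliation and 14, 4 and 9 in control leaves. After scaling these were 0.517 to 0.783 CPM under shading, 0.372 to 0.597 CPM after defoliation and 0.154 to 0.504 CPM in control leaves. The gene passed the filter on low counts only through its treated libraries. The log2 fold change of shading over control was 1.02 ± 0.50 (SE, 95% interval -0.08 to 2.13, edgeR adjusted p = 0.147). The log2 fold change of defoliation over control was 0.46 ± 0.50 (SE, edgeR adjusted p = 0.509).

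Solyc03g031840.3 averaged 11.8 ± 3.62 CPM under shading, 14.3 ± 1.72 CPM after defoliation and 12.6 ± 1.55 CPM in control leaves (SD, n = 3). The log2 fold change against control was -0.09 (95% interval -0.57 to 0.38) for shading and 0.18 (-0.30 to 0.65) for defoliation. Solyc06g005560.3 averaged 7.32 ± 2.92 CPM under shading, 7.55 ± 1.48 CPM after defoliation and 7.91 ± 1.86 CPM in control leaves (SD, n = 3). Its log2 fold change against control was -0.10 (95% interval -0.77 to 0.58) for shading and -0.07 (-0.74 to 0.60) for defoliation. The highest upper bound of these 4 intervals was 0.65, below the log2 fold changes of Solyc06g049050.3, Solyc04g081870.3 and Solyc09g010860.3 against control. Intervals of the risen genes still reached below it. Their lower bounds were 0.645 for Solyc04g081870.3 under shading, and 0.585 (shading) and 0.533 (defoliation) for Solyc09g010860.3. Differences between genes were not tested. For both genes shading replicate 3 was the lowest of the 9 libraries, at 8.07 and 4.20 CPM.

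**Figure D2:**
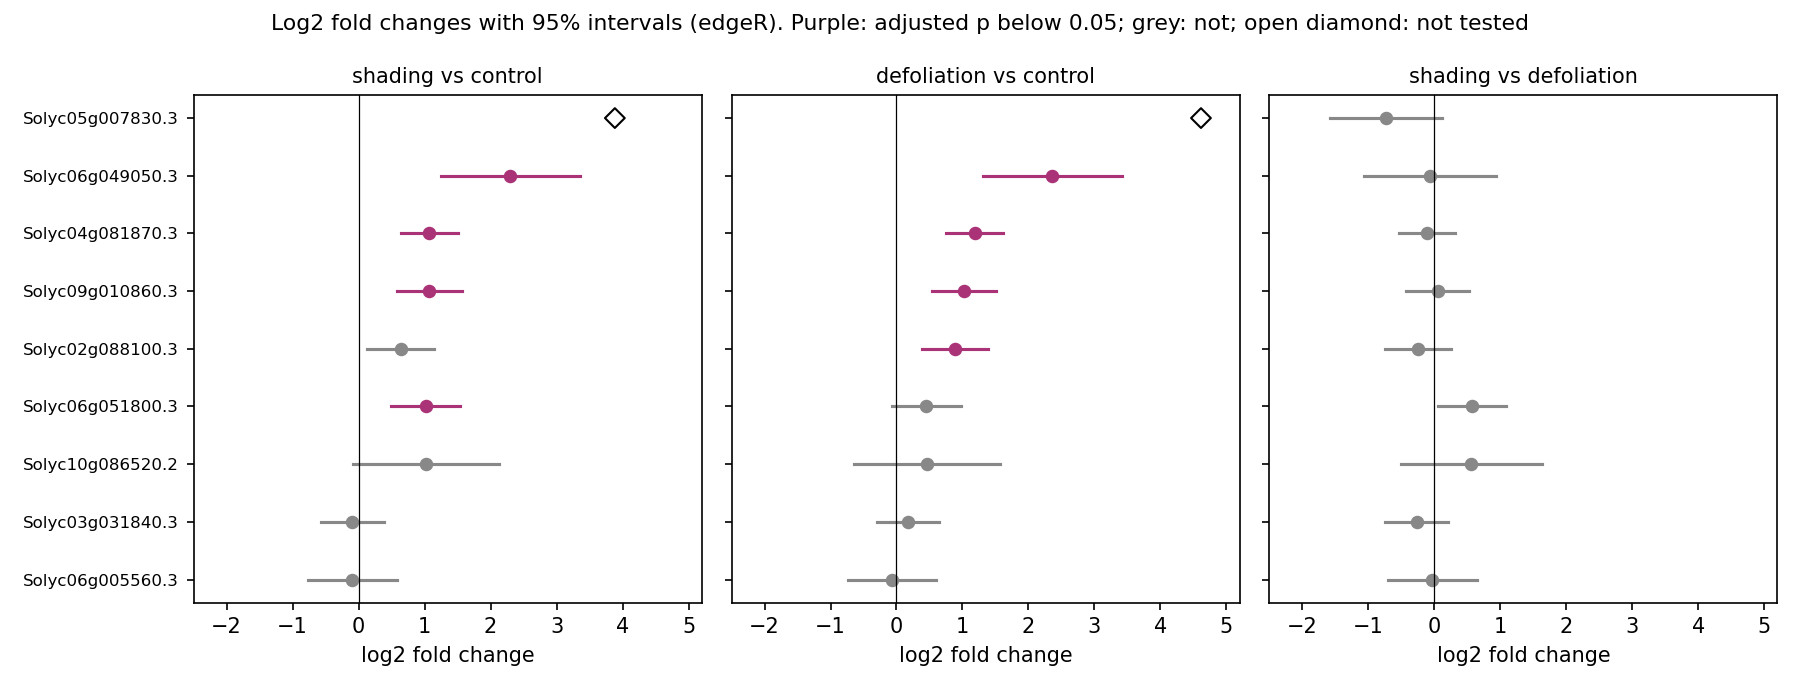
Points are log2 fold changes of the 9 genes that passed the filter, with 95% intervals as lines, for shading over control, defoliation over control and shading over defoliation. Purple marks an adjusted p below 0.05, grey the rest, and the open diamonds of Solyc05g007830.3 (3.88 and 4.61) carry no interval or test. Intervals of Solyc06g049050.3, Solyc04g081870.3 and Solyc09g010860.3 lie above 0 in both comparisons with control, and none in the third panel passed after adjustment.

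Counted over the 8 tested genes other than Solyc05g007830.3, 4 rose and 0 fell under shading, while 16.0% of all tested genes rose and 14.2% fell. After defoliation 4 of the 8 rose and 0 fell, while 18.9% of all tested genes rose and 15.4% fell. Unadjusted edgeR p-values below 0.05, in either direction, were found for 5 of the 8 genes under shading (41.6% of all tested genes) and for 4 of the 8 after defoliation (44.9%), so the second count is close to the share over all genes. All of them were for higher levels, and DESeq2 and limma-voom likewise called 0 lower. The median log2 fold change of the 8 genes was 1.02 under shading and 0.67 after defoliation, against medians of -0.02 and -0.02 over all tested genes. Treated and control libraries did not overlap, with the treated ones higher, for 6 of the 8 genes under shading (23.1% of all tested genes) and for 5 of the 8 after defoliation (26.4%). Among the 6 was Solyc10g086520.2 by a narrow gap that depends on scaling. Its lowest shading library had 0.517 CPM on 8 reads, and its highest control library had 0.504 CPM on 14 reads. This gene passed the filter on low counts only through its treated libraries. Its part in these counts and medians is therefore not independent of its treated levels. Both comparisons use the same 3 control libraries, so they are given side by side and not as 2 independent results. The 8 genes were listed with earlier results known, so these counts and medians describe the list and do not test it. The calls of Solyc06g049050.3, Solyc04g081870.3 and Solyc09g010860.3 held in both comparisons, and that of Solyc06g051800.3 in shading against control, under each of the 17 alternatives run.

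In the direct comparison of shading with defoliation, edgeR called 0 of the 9 genes, as it called 0.0146% of all tested genes. DESeq2 also called 0 of the 9, while it called 4.98% of all tested genes, and limma-voom called 0 of the 9 and 0.0146% of all. Before adjustment, 1 of the 9 had an edgeR p below 0.05, namely Solyc06g051800.3, as did 16.6% of all tested genes. The 9 genes had a median log2 fold change of -0.06, against -0.03 over all tested genes.

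Summed over the 10 genes, the list reached 629, 363 and 328 CPM in the shading libraries, 709, 499 and 480.0 CPM in the defoliation libraries and 103, 149.9 and 87.4 CPM in the control libraries. Most of this separation came from Solyc05g007830.3 and Solyc06g049050.3, whose reads weigh most in the sum of the treated libraries. Without Solyc05g007830.3 the sum averaged 277 ± 76.5 CPM under shading, 292 ± 43.1 CPM after defoliation and 102 ± 29.3 CPM in control leaves (SD, n = 3). Without both genes it averaged 111 ± 14.2, 119 ± 15.0 and 68.5 ± 14.3 CPM in shading, defoliation and control leaves, and treated and control libraries still did not overlap. No test is given for these sums, since their genes were chosen with earlier results known.

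**Figure D3:**
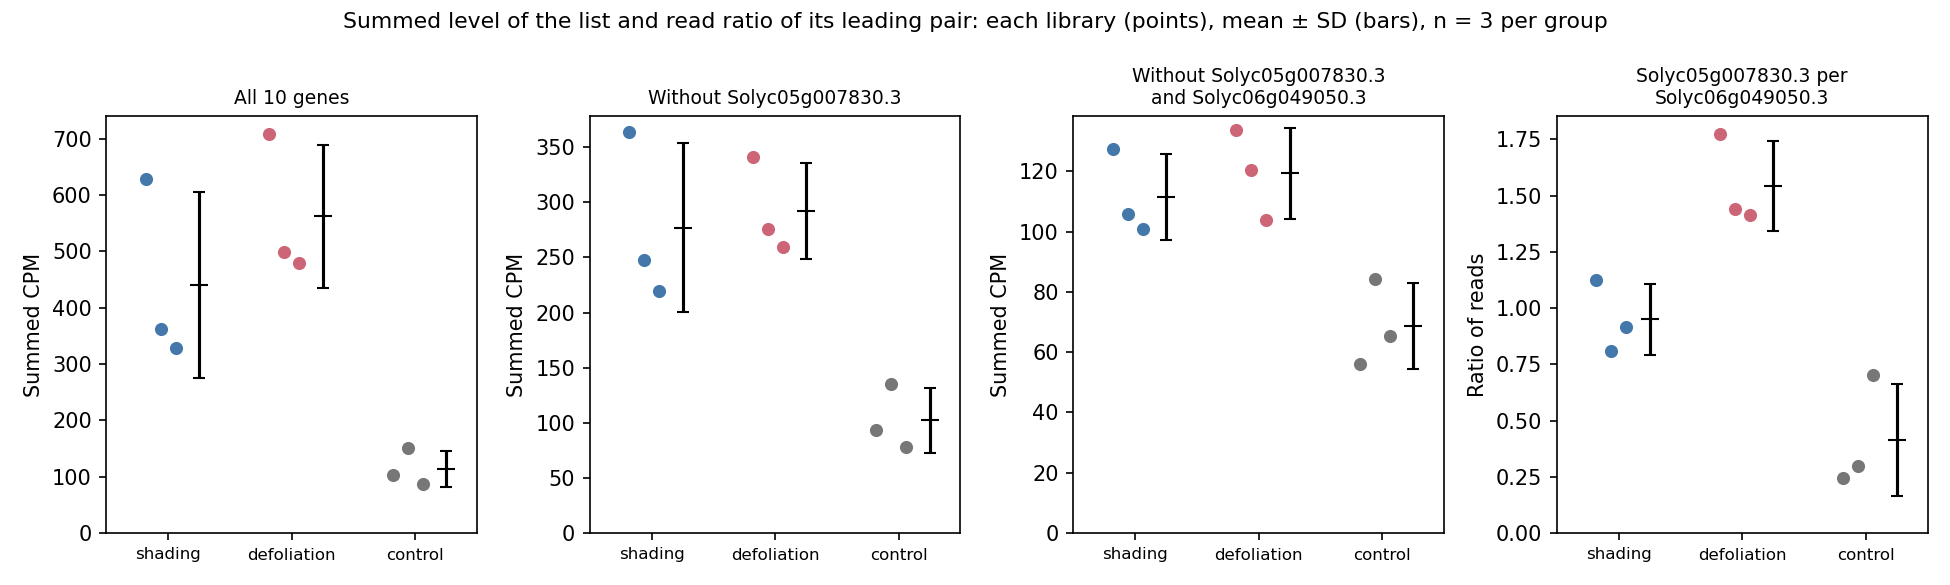
The first 3 panels plot the summed CPM of all 10 genes, of the list without Solyc05g007830.3, and of the list without Solyc05g007830.3 and Solyc06g049050.3, for each library (points) with mean ± SD (bars). The last panel plots reads of Solyc05g007830.3 per read of Solyc06g049050.3, which lie between 0.809 and 1.12 under shading, 1.41 and 1.77 after defoliation and 0.244 and 0.701 in control leaves.

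The make-up of the list's reads differed along with its level. The shares restate the changes in level given above, including that of Solyc05g007830.3 against control, on which this gene had been selected. They are a description only. Solyc05g007830.3 supplied 35.7 ± 5.69% of them under shading, 47.5 ± 3.81% after defoliation and 9.75 ± 0.77% in control leaves (SD, n = 3). These are shares of reads and not of transcripts. Solyc03g031840.3, whose own level overlapped between groups, supplied 2.73 ± 0.49% under shading, 2.66 ± 0.80% after defoliation and 11.6 ± 2.60% in control leaves. Solyc06g049050.3 supplied 37.6 ± 1.53% under shading, 30.9 ± 1.63% after defoliation and 28.4 ± 11.9% in control leaves, the share being 14.8% in control replicate 3 and 36.5% and 33.9% in the other 2.

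**Figure D4:**
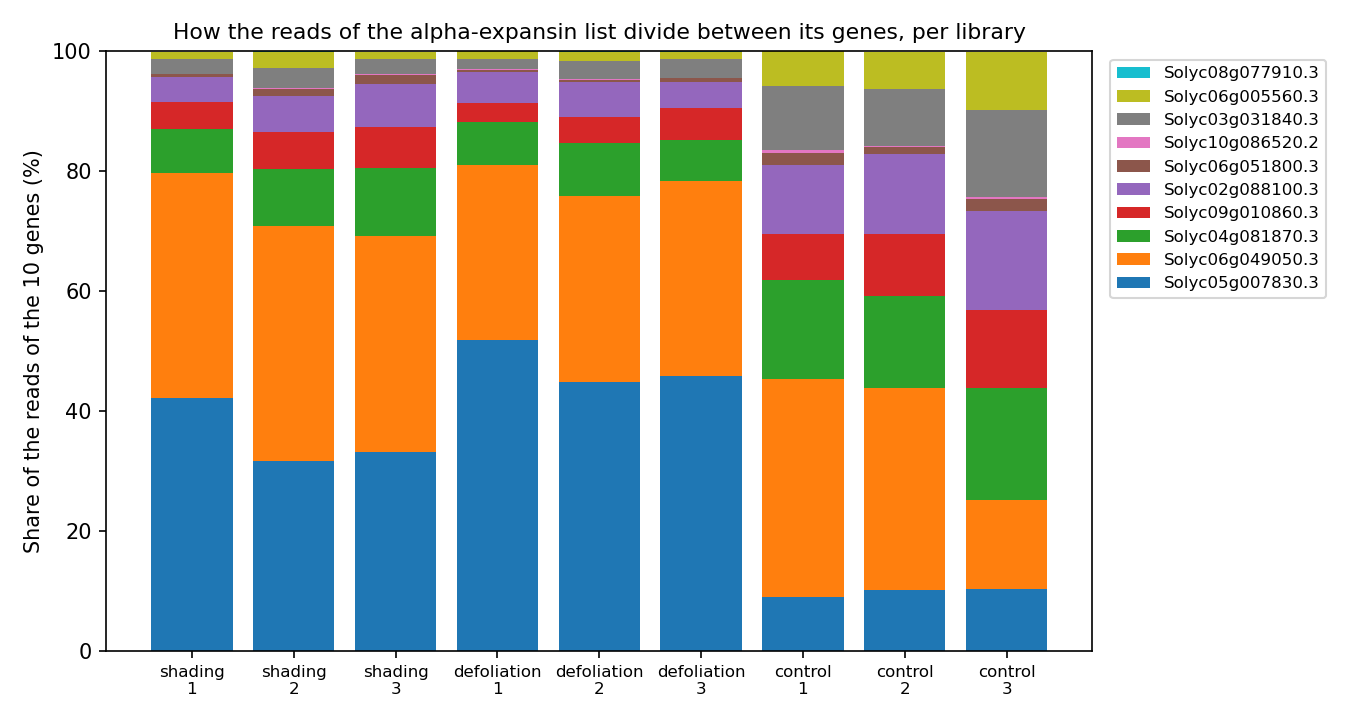
Bars divide the reads of the 10 genes in each library into the percent that each gene supplied. Solyc05g007830.3 at the base takes 31.7% to 42.2% in the shading libraries, 44.8% to 51.9% in the defoliation libraries and 8.88% to 10.3% in the control libraries.

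The ratio of reads between the 2 leading genes of the list is free of library scaling. Reads of Solyc05g007830.3 per read of Solyc06g049050.3 were 1.12, 0.809 and 0.916 under shading, 1.77, 1.44 and 1.41 after defoliation and 0.244, 0.296 and 0.701 in control leaves. The 3 groups did not overlap, with defoliation highest and control lowest. The pair was chosen after the values were seen, so the ratio is a description only.

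Some libraries deviated from their group mean in a similar way for many genes of the list. The libraries not named next were more mixed, with 3 to 7 of the 9 tested genes above the mean. Shading replicate 1 lay above its group mean for 8 of the 9 tested genes, the exception being Solyc06g051800.3. Control replicate 2 lay above its group mean for 8 of the 9, with Solyc10g086520.2 the exception. Shading replicate 3, the shallowest library, lay below for 8 of the 9, again with Solyc06g051800.3 the exception. Deviations within a group balance out, so this is not independent of shading replicate 1. The share of all tested genes above the group mean was 53.5% in shading replicate 1, 46.5% in shading replicate 3 and 50% in control replicate 2. The largest deviation of the list was that of Solyc06g049050.3 in control replicate 3, at -1.12 on the log2(CPM + 1) scale, where Solyc09g010860.3 (0.03) and Solyc03g031840.3 (0.01) lay close to their group mean. Solyc06g049050.3 and Solyc05g007830.3 were also the most variable of the tested genes, with fitted biological coefficients of variation of 37.7% and 32.4%. Larger values were fitted for 12.3% and 17.8% of all tested genes.

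**Figure D5:**
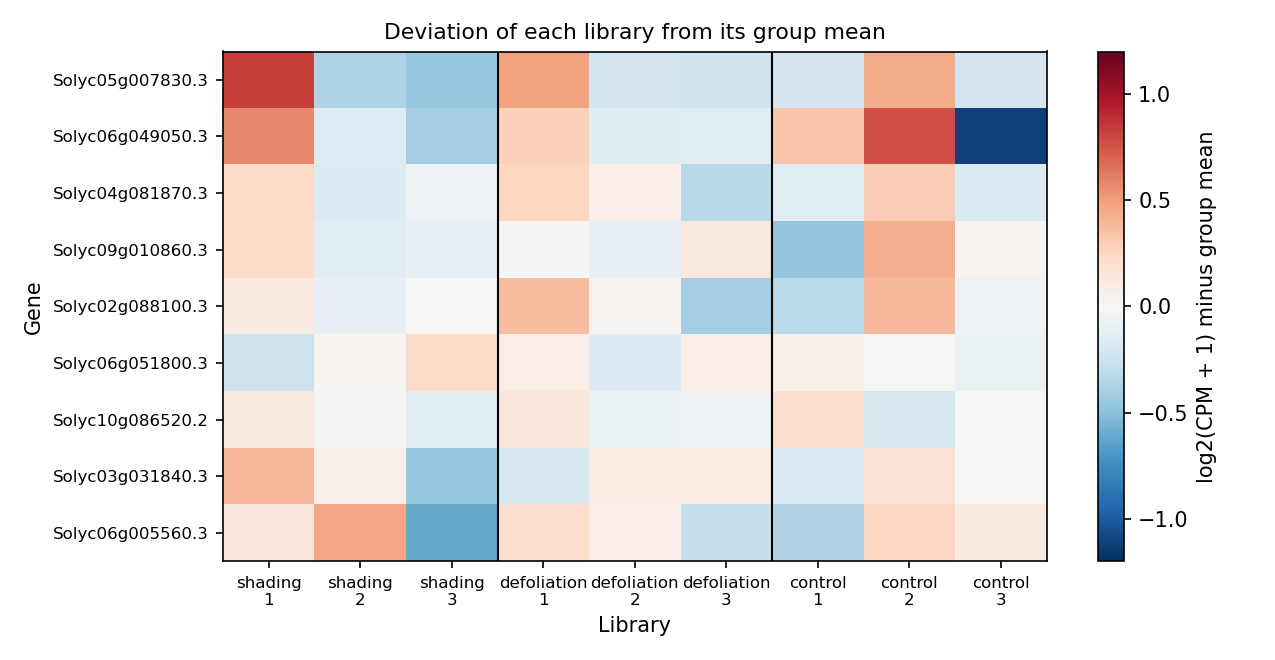
Colours give the log2(CPM + 1) of each of the 9 tested genes in each library minus the mean of its group, red above and blue below. Shading replicate 1 and control replicate 2 are mostly red, and the darkest blue field is Solyc06g049050.3 in control replicate 3 at -1.12.

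Genes outside the list with the most similar course over the 9 libraries were sought for the 3 genes of the list with the highest mean CPM. The measure was the root mean square difference between log2(CPM + 1) values centred on each gene's mean, over 13828 genes with a mean of at least 5 CPM. Closest to Solyc05g007830.3 were Solyc01g109500.3, at a difference of 0.64, and Solyc02g094160.1, also at 0.64. Within the list, Solyc05g007830.3 was nearest to Solyc06g049050.3, at 0.91. Solyc01g109500.3 averaged 29.9 ± 21.2 CPM under shading, 45.4 ± 3.75 CPM after defoliation and 3.94 ± 3.49 CPM in control leaves (SD, n = 3).

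Smaller differences were found for the other 2 genes, whose own changes against control were smaller. Solyc06g049050.3 was closest to Solyc08g077120.2 (0.33) and Solyc10g086150.2 (0.34), the second of which averaged 639 ± 186 CPM under shading, 761 ± 206 CPM after defoliation and 109.7 ± 33.9 CPM in control leaves (SD, n = 3). Solyc04g081870.3 was closest to Solyc07g062870.3 (0.13) and Solyc07g015860.3 (0.14). Within the list the most similar pair was Solyc02g088100.3 and Solyc04g081870.3, at 0.20, and the least similar was Solyc05g007830.3 and Solyc06g005560.3, at 2.03. A small difference says that levels moved by like amounts over these libraries and nothing of function. The measure is not scaled to each gene's own range and tends to be smaller for genes that changed little. It therefore does not rank how tightly genes vary together.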

How the data were processed

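Messenger RNA libraries of leaves were made with a TruSeq RNA kit, per the labels' protocols. The authors deposited expected counts per gene, 1 column per library, which the table labels as raw counts from RSEM and which are whole numbers. Trim Galore, STAR, RSEM and DESeq2 are named in the submitters' processing notes. Versions, build and annotation: not given in the sources used here. Because RSEM splits a read among all genes it matches by estimation, counts of near-identical family members are uncertain, and reads of overlapping genes cannot be told apart without strand.

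These counts, rounded to whole numbers, were filtered by filterByExpr with the group factor (20480 of 23195 genes left) and scaled by TMM. Groups were compared by quasi-likelihood F-tests in edgeR 4.0.16 (R 4.3.3, robust, default method) on all 9 libraries in 1 fit with a coefficient per group. Benjamini-Hochberg adjustment ran over all tested genes, with a threshold of 0.05. The SE is the log2 fold change divided by the root of F, and its 95% interval uses the fitted degrees of freedom. The procedure was run on simulated counts with changes put in, of which only the sign and median size had to be recovered. The simulated spread followed the trend over all genes and not each gene, so the run does not measure error rates for the listed genes. Alternatives were DESeq2 1.42.0, limma-voom (limma 3.58.1), other scaling, filter, quasi-likelihood method and fit, and leaving out each library.

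The members and lists were chosen with earlier results of these data known. All listed genes are named, and for the 3 with the highest mean CPM the 2 most similar other genes. Lists of other wall genes and of cell types need gene products, which could not be joined to the identifiers, and were not used. Libraries with the same replicate number are not stated to share a plant or day, and their deviations from the group means correlated between -0.21 and 0.20 across genes. Intervals from 3 replicates are wide, and a count of 3 corresponds to 0.0931 to 0.194 CPM.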

Additional observations from a re-analysis of the deposited data

How the results depend on the processing

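The numbers of genes called did not leave the range 4 to 5 for shading against control, 3 to 4 for defoliation against control and 0 for the direct comparison under any alternative or left-out library. With the replicate number as a block, 4, 4 and 0 were called, and the direct log2 fold change of Solyc05g007830.3 was -0.79. The labels do not say that libraries of the same number share anything. Correlations were computed for same-numbered libraries only, with no other pairs to set them against, so they cannot decide it. Summed CPM of the list moved by less than 1 SD with plain totals or RLE factors. Changes of sign occurred only for differences that did not pass. With upper-quartile factors the log2 fold change of shading over defoliation for Solyc06g005560.3 was 0.012, against -0.03. Leaving out single libraries moved that value between -0.32 and 0.24, its shading value against control between -0.38 and 0.17, and its defoliation value between -0.24 and 0.082. In the same way Solyc03g031840.3 under shading ranged from -0.32 to 0.11. For shading over defoliation, Solyc04g081870.3 ranged from -0.26 to 0.025, Solyc06g049050.3 from -0.41 to 0.13 and Solyc09g010860.3 from -0.070 to 0.12. Solyc10g086520.2 rested on 4 to 20 reads per library and Solyc08g077910.3 on 0 to 3, and no alternative varied the depth.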
